A study of Mus musculus with 20 samples.

Results

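The integrated stress response genes described here are Atf4 and 9 genes tied to it: Asns, Slc3a2, Slc7a11, Ddit3, Ppp1r15a, Trib3, Sesn2, Psat1 and Phgdh. They were chosen by name as a pathway, 10 of the 49671 genes in the count tables. RNA was counted in hematopoietic stem cells (HSCs) sorted from bone marrow of C57BL/6 mice aged 8 weeks as Lin-, cKit+, Sca1+, CD150+ and CD48- cells. The 3 Control libraries came from Vav-CRE:Kdm6b+/+ mice and the 3 Kdm6b-KO libraries from Vav-CRE:Kdm6bfl/fl mice, so both groups carried the Cre driver. Marrow of 6 mice, 3 of each sex, was pooled for each library, so differences between single animals were not measured. Vav drives Cre throughout the blood system, and the loss is therefore not limited to stem cells. Kdm6b encodes a histone demethylase. Accessible DNA was profiled in 6 further HSC samples by ATAC-seq, in which a transposase cuts open chromatin. All 6 are from mice aged 8 weeks, with 10000 cells sorted for each sample. Of the 6 samples, 3 are titled Control and 3 are titled 6bKO. The genotype label of all 6 ATAC libraries reads wild-type, so the titles set the groups and the second group is called the libraries titled 6bKO.

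The integrated stress response starts when a kinase that senses amino acid shortage, heme shortage, double-stranded RNA or misfolded protein phosphorylates the translation factor eIF2. Most translation then slows, while upstream reading frames in the Atf4 messenger let more ATF4 protein be made. ATF4 is a bZIP transcription factor that binds C/EBP-ATF response elements (CARE) and raises genes for amino acid uptake and synthesis. HSCs are known for a low rate of protein synthesis. Because ATF4 is set largely at translation, RNA counts of Atf4 do not measure its protein.

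Promoter sequences show where letters of the binding sites lie in these genes. They were taken from RefSeq for the build GRCm38.p6, the assembly of mm10, and all 10 genes matched. The 250 bases before each start site were searched on both strands. For Slc3a2 and Slc7a11 the listed start site lies inside the gene span, so bases before the outer end of the span were not searched. A CARE core written TGATGNAA was found before Asns and, on both strands, before Slc7a11, and 3.45% of 32851 promoters hold it. The same letters are part of the element known from the human ASNS promoter. A related form, TGNTGCAA, which overlaps TGATGNAA in TGATGCAA and was chosen after the sequences had been seen, was found before Slc7a11, Trib3, Sesn2 and Psat1 and in 2.72% of promoters. The cyclic AMP response element TGACGTCA was found before Ppp1r15a and in 1.55% of promoters. Windows of 30 bases are given 5′ to 3′ on the strand of the gene, which is the minus strand for each, with the match in capitals.
Asns, chr6:7693214-7693243: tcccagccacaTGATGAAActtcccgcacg
Slc7a11, chr3:50443661-50443690: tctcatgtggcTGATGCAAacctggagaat
Slc7a11, chr3:50443642-50443671: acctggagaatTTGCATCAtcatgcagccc
Trib3, chr2:152344075-152344104: cgggtcacagaTGGTGCAAtcccgggccgc
Sesn2, chr4:132510656-132510685: catgcaaaagtTTGCAGCAtctgtgcgagg
Psat1, chr19:15925177-15925206: acgcgggtggcTGGTGCAAtcccctgctct
Ppp1r15a, chr7:45526269-45526298: gagaccccgcctctccggTGACGTCAgcac
The matches began 23 bases before the start site of Asns, 33 before that of Trib3, 136 before that of Psat1 and 218 before that of Sesn2. Those of Slc7a11 began 66 and 47 bases before its start site, and that of Ppp1r15a 12 bases before. The CCAAT box, CCAAT, stood before Atf4, Slc7a11, Ddit3, Sesn2, Psat1 and Phgdh and before 33.8% of all promoters. The AP-1 site TGANTCA stood before Ddit3, 242 bases from its start site, and in 6.75% of promoters. The endoplasmic reticulum stress element (ERSE) was in none of the 10 promoters and in 0.113% of all. A match is a run of letters and was not tested for binding.

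Each Control library held 6793873 to 13797890 counts in genes, and each Kdm6b-KO library 8683106 to 19336121. Reads in genes made up 16.5% to 19.7% of those listed, and 37.6% to 46.8% had no unique alignment. Levels are given as CPM, the counts scaled to a common library total with TMM factors, and 3 counts corresponded to 0.148 to 0.461 CPM. Levels of different genes are not compared, since no transcript lengths were used. The stem cell markers Kit, Ly6a, Slamf1, Procr, Mecom, Hlf and Tek were all detected and tested, and none passed the edgeR test, while DESeq2 and limma-voom called 0. At an unadjusted p under 0.05, 1 was higher, Procr, and 1 was lower, Hlf. Procr stood at 97.2 ± 12.9 CPM in Control against 137.0 ± 23.3 CPM in Kdm6b-KO (SD, n = 3) and Hlf at 681.7 ± 53.7 CPM in Control against 473.3 ± 102.5 CPM in Kdm6b-KO, with edgeR adjusted p of 0.265 and 0.291. Cd48, which the sort excludes, ranged from 6.99 to 16.7 CPM in Control and from 4.60 to 14.2 CPM in Kdm6b-KO. Kdm6b itself stood at 198.3 ± 97.2 CPM in Control against 178.6 ± 31.8 CPM in Kdm6b-KO (SD, n = 3), with overlapping values and an edgeR adjusted p of 0.882. A count over the whole gene does not show whether the floxed part is lost, so it does not check the genotype labels. The libraries are labelled as biological replicates.

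In Kdm6b-KO HSCs, 5 of the 10 genes had all 3 libraries above all 3 Control libraries: Atf4, Asns, Slc3a2, Ppp1r15a and Sesn2. No gene had all 3 below. Over all 15185 tested genes, 11% lay wholly above and 9.49% wholly below, 20.5% in either direction. By edgeR's quasi-likelihood test with Benjamini-Hochberg adjustment over all tested genes, 1 of the 10 passed an adjusted p of 0.05, Ppp1r15a, which was higher in Kdm6b-KO. Of all tested genes 0.461% passed in either direction, and 0.244% passed as higher. The same 5 genes had an unadjusted p under 0.05, against 14.8% of all genes. The median log2 fold change was 0.67 over the 10 genes and -0.00125 over all tested genes, and 7 of the 10 were positive, against 49.9% of all. The number of calls depended on the setting, since with DESeq2 all 5 passed and with limma-voom none did.

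**Figure D1:**
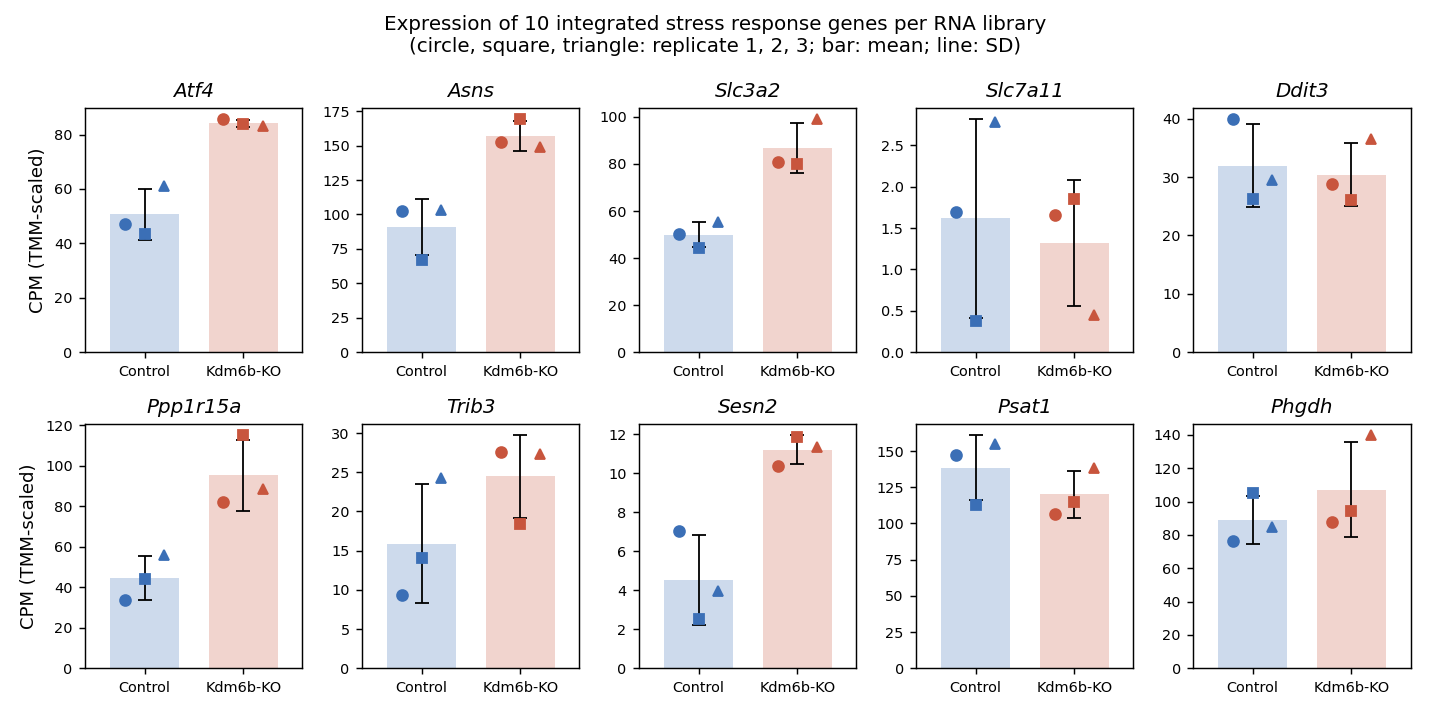
CPM (linear axes from 0, TMM-scaled) of each of the 10 genes in the 3 Control and 3 Kdm6b-KO RNA libraries; bars are means, lines SD and the marker shape gives the replicate number. Atf4, Asns, Slc3a2, Ppp1r15a and Sesn2 show no overlap of the groups, while the other 5 genes overlap.

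Atf4 (ENSMUSG00000042406, chr15:80255184-80257545), the transcription factor of the response, stood at 47.1, 43.6 and 61.2 CPM in Control replicates 1 to 3 and at 85.7, 83.9 and 83.1 CPM in Kdm6b-KO. The Kdm6b-KO libraries were close to each other and all above the highest Control library. The means were 50.7 ± 9.33 CPM and 84.2 ± 1.33 CPM (SD, n = 3 each). The log2 fold change was 0.73 with SE 0.19 and an edgeR adjusted p of 0.118, which does not pass. Its 95% interval ran from 0.32 to 1.14. Genes close to Atf4 over the 6 libraries were sought outside the 10. Those without a symbol or with a predicted-gene, clone or pseudogene name were left out. Among the 10280 left of at least 5 CPM, the 3 closest in centred log2(CPM + 0.5) were Wls, Dxo and Rabac1. Their root mean square differences from Atf4 were 0.0383, 0.0548 and 0.0652. Wls, which carries Wnt proteins to the cell surface, stood at 190.9 ± 27.2 CPM in Control against 316.7 ± 1.67 CPM in Kdm6b-KO. Dxo, an enzyme that removes faulty messenger caps, stood at 6.05 ± 1.30 and 10.1 ± 0.820 CPM, and Rabac1, which binds Rab proteins, at 40.2 ± 9.23 and 68.9 ± 2.06 CPM. By the same measure Slc3a2 differed from Atf4 by 0.131, Asns by 0.162, Ppp1r15a by 0.275 and Slc7a11, the farthest of the 9, by 0.743.

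Among the amino acid genes, uptake was represented by Slc3a2 and Slc7a11. Slc3a2 (chr19:8706882-8723369) encodes the 4F2 heavy chain, the partner that brings several amino acid exchangers to the cell surface. It stood at 50.1, 44.5 and 55.2 CPM in Control and at 81.0, 80.1 and 99.0 CPM in Kdm6b-KO. The groups did not overlap, with means of 49.9 ± 5.38 and 86.7 ± 10.7 CPM. Its log2 fold change was 0.80 with SE 0.19 and an edgeR adjusted p of 0.0925, the smallest of the genes that did not pass.

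Slc7a11 (chr3:50364936-50499087), the cystine and glutamate exchanger that pairs with Slc3a2, was close to the detection floor. It held 11, 3 and 38 counts in Control and 19, 17 and 9 counts in Kdm6b-KO, or 1.69, 0.381 and 2.78 CPM against 1.66, 1.85 and 0.445 CPM. The groups overlapped, and the interval of its log2 fold change, from -1.93 to 1.18, was the widest of the 10. No difference was detected. The highest CPM was 7.28 times the lowest within Control and 4.16 times within Kdm6b-KO. How far low counts or this spread widened the interval was not tested.

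Synthesis was represented by Asns, Psat1 and Phgdh. Asns (chr6:7675165-7693209), asparagine synthetase, stood at 102.3, 67.1 and 103.4 CPM in Control and at 152.3, 169.2 and 148.8 CPM in Kdm6b-KO. Every Kdm6b-KO library was above every Control library, and the means were 90.9 ± 20.6 and 156.8 ± 10.9 CPM. The log2 fold change was 0.79 with SE 0.20 and an edgeR adjusted p of 0.114.

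Phgdh (chr3:98313171-98339969) makes the entry step of serine synthesis from glycolysis. It stood at 76.6, 105.0 and 84.9 CPM in Control and at 87.8, 94.3 and 139.7 CPM in Kdm6b-KO, where replicate 3 was high. The groups overlapped (log2 fold change 0.27, SE 0.22, edgeR adjusted p 0.587). Psat1 (chr19:15905123-15925059), the aminotransferase of the following step, stood at 147.6, 112.8 and 154.8 CPM in Control and at 106.9, 115.2 and 138.2 CPM in Kdm6b-KO. Its groups overlapped too, with a log2 fold change of -0.20, SE 0.20 and an edgeR adjusted p of 0.668. The intervals of both serine enzymes included 0 and that of Asns did not. The interval of Phgdh overlapped that of Asns, and a difference between the genes was not tested.

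The feedback and effector genes were Ppp1r15a, Trib3, Ddit3 and Sesn2. Ppp1r15a (chr7:45522917-45526268) encodes GADD34, which directs protein phosphatase 1 to eIF2 and so ends the response. It stood at 33.9, 44.1 and 55.7 CPM in Control and at 82.2, 115.0 and 88.4 CPM in Kdm6b-KO. The groups did not overlap, and the means were 44.6 ± 10.9 and 95.2 ± 17.4 CPM. It rose 2.13-fold in Kdm6b-KO, a log2 fold change of 1.09 with SE 0.22, and passed with an edgeR adjusted p of 0.0439. Over 15 alternative settings the log2 fold change stayed between 0.93 and 1.28 and it passed in 8 of them, with adjusted p from 0.000279 to 0.243. It did not pass with limma-voom (0.0840), with robust estimation off (0.0757) or without the genes of chromosome 11 (0.0686). Nor did it pass without Control replicate 2 (0.159) or without Kdm6b-KO replicate 1 (0.0508), 2 (0.243) or 3 (0.221), each of which left 2 libraries in that group. Ppp1r15a overlaps Tulp2 in the annotation, and no source used here states whether counting used strand, so reads of the pair cannot be told apart.

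Sesn2 (chr4:132492804-132510456), sestrin 2, a sensor of leucine that restrains mTORC1, held 46, 20 and 54 counts in Control and 119, 109 and 229 counts in Kdm6b-KO. In CPM these were 7.06, 2.54 and 3.95 against 10.4, 11.9 and 11.3. All Kdm6b-KO libraries were above all Control libraries, and the means were 4.52 ± 2.32 and 11.2 ± 0.746 CPM. The log2 fold change of 1.33 was the largest of the 10, but its SE of 0.38 was also larger than that of all but Slc7a11, and the edgeR adjusted p was 0.132.

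Trib3 (chr2:152337425-152344060), a pseudokinase that binds ATF4 and dampens it, stood at 9.37, 14.1 and 24.3 CPM in Control and at 27.6, 18.4 and 27.4 CPM in Kdm6b-KO. Control replicate 3 lay above Kdm6b-KO replicate 2, so the groups overlapped (log2 fold change 0.61, SE 0.32, edgeR adjusted p 0.399). Ddit3 (chr10:127290793-127296291) encodes CHOP, the bZIP factor linked to cell death under lasting stress. It stood at 39.9, 26.3 and 29.6 CPM in Control and at 28.8, 26.0 and 36.5 CPM in Kdm6b-KO. The log2 fold change was -0.06 with an interval from -0.57 to 0.45, and the groups overlapped. Its sign changed with the setting. Ddit3 overlaps Mbd6 and Mars1, with the same limit on strand.

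**Figure D2:**
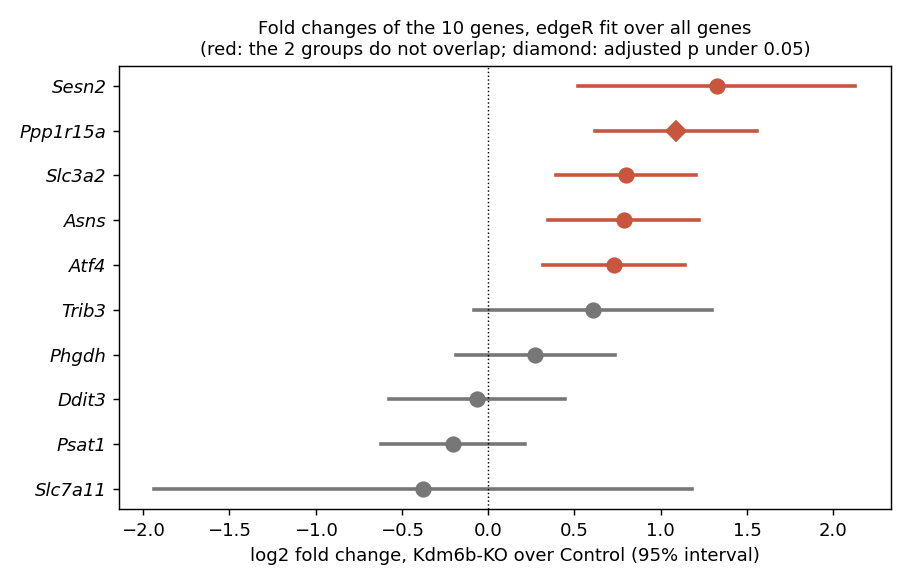
Log2 fold change of Kdm6b-KO over Control for the 10 genes, with 95% intervals from the edgeR fit over all tested genes. The intervals of Sesn2, Ppp1r15a, Slc3a2, Asns and Atf4 lie above 0, and only Ppp1r15a has an adjusted p under 0.05.

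The 5 genes without overlap kept a positive log2 fold change in each of the 15 alternative settings. They were picked for that lack of overlap and the settings reuse the same libraries, so the sign was largely fixed in advance. The range was 0.63 to 0.89 for Atf4, 0.61 to 0.92 for Asns, 0.69 to 0.94 for Slc3a2 and 1.05 to 1.77 for Sesn2. Of these 15 settings, Slc3a2 passed the threshold in 4, Asns and Sesn2 in 3 each and Atf4 in 2. With DESeq2 the adjusted p was 0.0378 for Atf4, 0.0264 for Asns, 0.0172 for Slc3a2, 0.0327 for Sesn2 and 0.00200 for Ppp1r15a. DESeq2 called 467 genes in all, against 70 by edgeR, so its calls stand against a larger background. None of the 10 genes lies on chromosome 11, which carries Kdm6b.

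**Figure D3:**
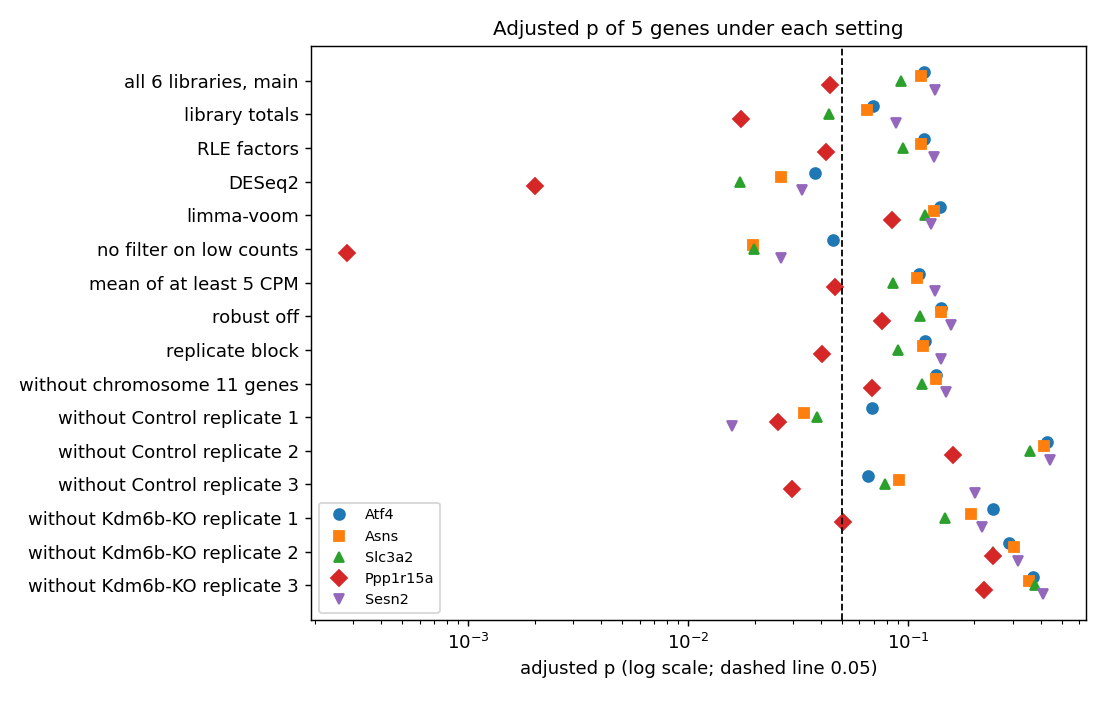
Adjusted p (log axis, dashed line at 0.05) of Atf4, Asns, Slc3a2, Ppp1r15a and Sesn2 in the reported fit and in 15 alternative settings. Leaving out Control replicate 2 or any Kdm6b-KO library gave all 5 a p above the line, and DESeq2 or no filter on low counts put all 5 below it.

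Other genes of the pathway were read from 9 lists of 104 genes, of which 93 were tested. None passed the edgeR test, limma-voom called 0 and DESeq2 called 1. At an unadjusted p under 0.05 by edgeR, 11 of the 93 were higher and 1 was lower, beside 14.8% of all genes in either direction. The median log2 fold change of the 93 was 0.13. Of them 61 were positive, or 65.6% beside 49.9% of all genes, and 32 negative. All 3 Kdm6b-KO libraries were above all Control libraries for 15 of the 93, or 16.1% beside 11% of all genes, and below for 3, or 3.23% beside 9.49%.

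The kinases that phosphorylate eIF2 numbered 4, all tested. Eif2ak1, the heme-regulated kinase, stood at 69.1 ± 10.3 CPM in Control against 88.6 ± 5.28 CPM in Kdm6b-KO without overlap, with an edgeR adjusted p of 0.388. Eif2ak2, the kinase activated by double-stranded RNA, stood at 121.4 ± 18.0 and 109.6 ± 18.8 CPM and overlapped. Of the eIF2, eIF2B and phosphatase subunits 11 of 12 were tested, with 5 positive and 6 negative values. Eif2s1, the phosphorylated subunit itself, stood at 236.4 ± 44.5 and 199.6 ± 22.5 CPM, and Ppp1cb, a catalytic subunit that Ppp1r15a can direct, at 268.0 ± 43.1 and 241.2 ± 19.9 CPM. Both overlapped.

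Of the bZIP partners of ATF4, 6 of 8 were tested, with 4 positive and 2 negative. Wholly above Control were 2, beside 11% of all genes, and wholly below 0, beside 9.49%. The 2 were Batf, at 24.1 ± 1.70 and 35.4 ± 9.22 CPM, and Jund, at 2.43 ± 0.403 and 5.68 ± 1.48 CPM. Both were named after their values were seen, and their edgeR adjusted p were 0.301 and 0.193. Cebpg, which forms heterodimers with ATF4, stood at 50.7 ± 10.6 and 50.8 ± 2.09 CPM, and Nfe2l2, the oxidative stress factor, at 230.0 ± 4.60 and 242.9 ± 28.3 CPM. Atf3 is listed at 0 in all 6 libraries, as are Ppp1ca and Fgf21. Ppp1ca is a gene that most cells use, so such a 0 may not be a true level.

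Further amino acid and one-carbon enzymes were tested for 9 of 12 genes, with 5 positive and 4 negative. Aldh18a1, of proline synthesis, stood at 115.1 ± 24.0 and 103.6 ± 12.1 CPM, and Shmt1, which passes serine carbon to folate, at 97.8 ± 9.77 and 103.1 ± 27.3 CPM. Of 8 amino acid transporters, all tested, 7 were positive, 3 lay wholly above Control and the median log2 fold change was 0.30. Slc38a2, a neutral amino acid carrier, stood at 135.0 ± 11.4 CPM in Control against 169.5 ± 13.8 CPM in Kdm6b-KO without overlap, with an edgeR adjusted p of 0.415. Slc38a1, of the same family, overlapped at 119.9 ± 28.7 and 144.5 ± 14.3 CPM.

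The aminoacyl-tRNA synthetases, which load amino acids on their transfer RNAs, were split, with 9 of 17 tested genes positive and 8 negative, 1 wholly above and 3 wholly below Control. Eprs was among the 3 at 433.3 ± 48.1 CPM in Control against 352.0 ± 12.2 CPM in Kdm6b-KO, with an edgeR adjusted p of 0.497. Kars stood at 418.0 ± 32.6 and 395.5 ± 49.0 CPM and overlapped. Vars, the valine enzyme, named after its values were seen, was the gene that DESeq2 called. It stood at 28.8 ± 17.5 and 69.3 ± 7.94 CPM, with an edgeR adjusted p of 0.196.

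Of the other ATF4 targets, 10 of 14 were tested, with 8 positive and 2 negative. Nupr1, named after its values were seen, had the lowest log2 fold change of the 93 genes, -0.55. It was the 1 gene lower at an unadjusted p under 0.05, at 132.4 ± 39.9 CPM in Control against 90.5 ± 16.7 CPM in Kdm6b-KO. Its groups overlapped, with an edgeR adjusted p of 0.291. Eif4ebp1, a brake on cap-dependent translation, named after its values were seen, had the smallest edgeR adjusted p of the 93 genes, 0.148, at 24.2 ± 9.42 CPM in Control against 46.4 ± 4.70 CPM in Kdm6b-KO. Map1lc3b, of autophagy, stood at 572.8 ± 70.5 and 577.2 ± 114.5 CPM, and Herpud1, of endoplasmic reticulum protein disposal, at 225.1 ± 78.8 and 195.6 ± 24.5 CPM. Of the 16 endoplasmic reticulum stress genes, 11 were positive with a median of 0.12. Hspa5, the chaperone BiP, stood at 479.8 ± 110.3 and 498.4 ± 25.1 CPM, and Pdia6, a disulfide isomerase, at 409.7 ± 39.8 and 362.6 ± 42.8 CPM. Both overlapped.

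The amino acid sensing and mTORC1 genes, 12 of 12 tested, had 9 positive values and a median log2 fold change of 0.18. Sesn1, a relative of Sesn2, stood at 143.3 ± 38.2 and 180.7 ± 12.6 CPM and overlapped. Nprl3, of the complex that restrains mTORC1 when amino acids are short, stood at 82.4 ± 9.93 and 93.3 ± 4.88 CPM without overlap, with an edgeR adjusted p of 0.690.

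**Figure D4:**
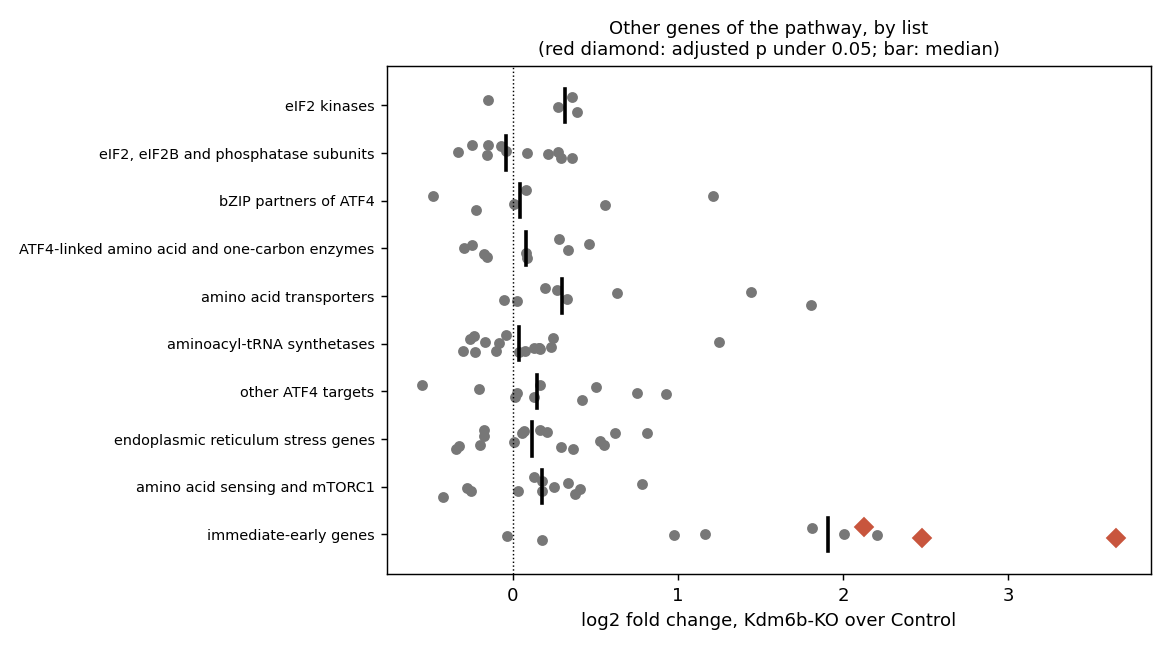
Log2 fold change of Kdm6b-KO over Control for each tested gene of 10 lists, with the list median as a bar and genes of adjusted p under 0.05 as red diamonds. None of the genes in the upper 9 lists passed, and 3 immediate-early genes passed.

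Immediate-early genes are switched on within minutes of a stimulus. Of 10, all tested, 3 rose by the edgeR test: Dusp1 (adjusted p 0.00650), Fosb (0.0142) and Fos (0.0323). The other 7 did not pass, and of all tested genes 0.244% passed as higher. Of the 10 genes 8 lay wholly above Control, beside 11% of all tested genes. DESeq2 called 7 of the 10 and limma-voom 3. Over the 15 alternative settings Dusp1 passed in 13 and Fos and Fosb in 12 each. The summed level of the list was 203.2, 140.3 and 225.8 CPM in Control against 492.8, 917.1 and 601.0 CPM in Kdm6b-KO. Kdm6b-KO replicate 2 held both the highest sum and the highest Ppp1r15a level, 115.0 CPM. In Control the lowest sum was in replicate 2, but the lowest Ppp1r15a level, 33.9 CPM, was in replicate 1. The part of the immediate-early genes in the result was not tested.

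Markers of other cells were read in the same libraries. The 9 erythroid markers, all tested, summed to 8207 to 11095 CPM in Control against 4495 to 5629 CPM in Kdm6b-KO without overlap, and Car2 made up most of the sum with 40869 to 112749 counts. The 10 neutrophil markers summed to 1192 to 3685 CPM in Control, to 4333 CPM in Kdm6b-KO replicate 1 and to 194.4 and 192.3 CPM in replicates 2 and 3. Replicate 1 thus stood apart within Kdm6b-KO, while replicates 2 and 3 lay below every Control library. Without replicate 1 the log2 fold change of Ppp1r15a was 1.19. That fit keeps only the Kdm6b-KO libraries with low neutrophil sums, so it does not test the mix of cells. Of the 6 T and NK cell markers 1 was tested, Klrb1c, and the list summed to 6.58 to 7.68 against 12.0 to 18.4 CPM, with Cd3e at 0 in 4 libraries. No gene of these 3 lists passed the edgeR test. At an unadjusted p under 0.05, erythroid genes numbered 1 higher and 1 lower, neutrophil genes 0 and T and NK cell genes 1 higher, while DESeq2 called 1 erythroid and 1 T and NK cell gene and limma-voom 0. Of the 6 markers of mast cells, basophils and eosinophils 4 were tested, with 0 called by edgeR or limma-voom, 2 lower at an unadjusted p under 0.05 and 2 called by DESeq2. These were Ms4a2, at 2.69 ± 1.57 CPM in Control against 0.169 ± 0.159 CPM in Kdm6b-KO with an edgeR adjusted p of 0.0526, and Cpa3, at 14.2 ± 3.32 and 6.24 ± 1.4 CPM with 0.120. Both lay wholly below Control, and Ms4a2 passed in 7 of 14 alternative settings. The sum of that list overlapped between the groups, with Prg2 at 22.7 ± 34.5 and 48.3 ± 80.2 CPM. The sums of the monocyte, B cell and megakaryocyte lists overlapped too. The part of other cells in the results was not tested, and in sorted bulk RNA a change in the mix of cells and in RNA per cell cannot be told apart.

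Peaks of open chromatin stood on most of the start sites. A peak covered the RefSeq start site of Asns, Ddit3, Ppp1r15a, Trib3, Sesn2, Psat1 and Phgdh in all 6 libraries, as at 30.8% of 21263 protein-coding start sites. That share covers protein-coding genes whether or not their RNA was detected, while all 10 genes here had enough RNA counts to be tested. For Psat1 the peak in all 6 libraries is at the outer of 2 listed start sites. The site of Slc3a2 at 8713897 was covered in 5 libraries, all but 6bKO-titled replicate 1, and that of Slc7a11 at 50443613 in 5, all but Control-titled replicate 1. Both of these sites lie inside the gene span given above. A region over the outer end of the Slc3a2 span, chr19:8722818-8723681, had a peak in all 6 libraries. The fold enrichment of a peak is the authors' own value, comparable only within its list, so no change is read from it. At the Asns site it ranged from 6.6 to 15.3 over the 6 libraries, within the top 5.65% to 33.1% of each list. At Ppp1r15a it ranged from 5.85 to 12.5, and the peak summit lay at -142 to -133 bases from the start site. Among the start sites of the 10 genes, that of Psat1 had the highest-ranked peak in each list, in the top 2.89% to 13% of each list.

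The Atf4 start site was covered by no peak in any library. The nearest region, chr15:80256000-80256204, 816 bases into the gene, had a peak in Control-titled replicate 3 and 6bKO-titled replicate 3. A region 3098 bases past the start, beyond the gene's end, had a peak in 5 libraries. Regions with a peak in all 6 libraries lay at chr15:80264106-80264660, 8922 bases past the start, and at chr15:80233636-80234376, at position -20808 from the start.

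**Figure D5:**
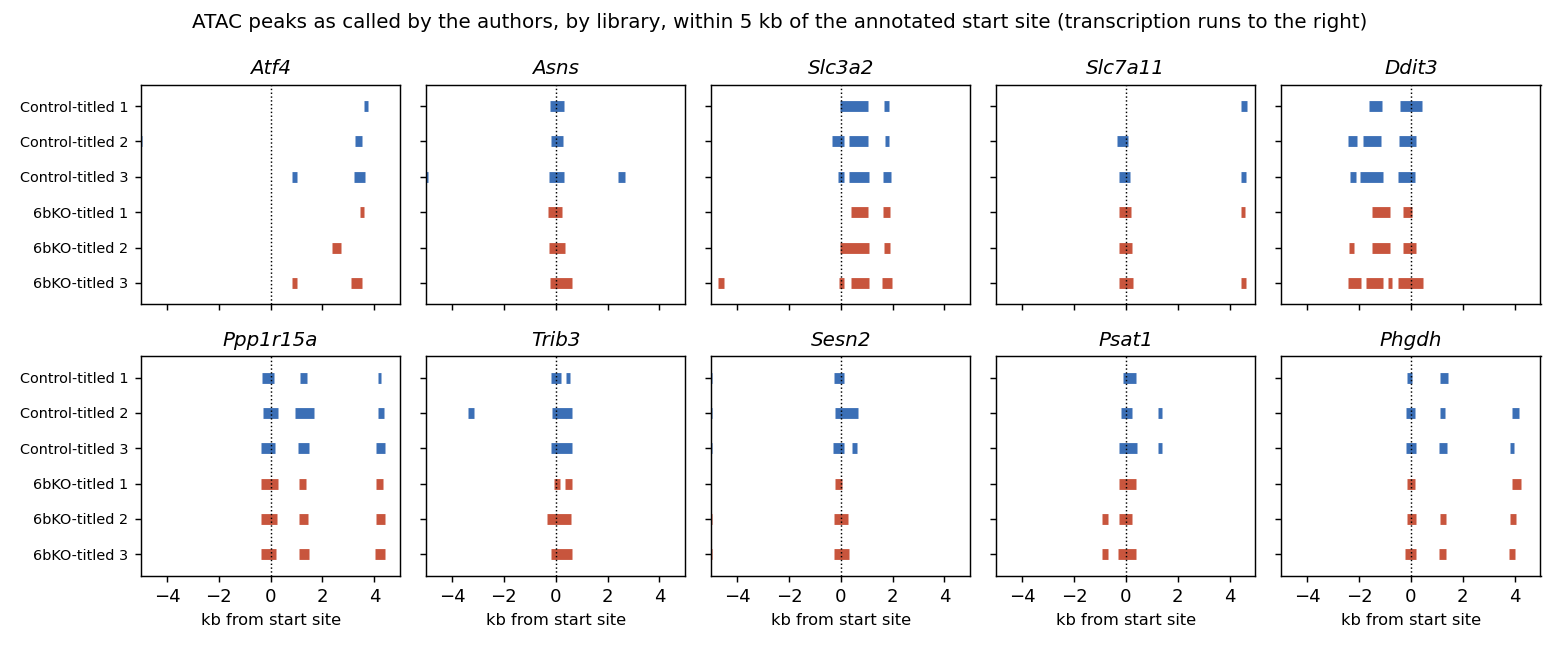
Peaks of each ATAC library (rows) within 5 kb of the start site (dotted line, distance in kb, transcription to the right) for the 10 genes. The Psat1 panel uses the outer of its start sites. Peaks sit on the start site in most panels, but not in that of Atf4.

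In or within 50 kb of the 10 genes, 162 merged regions held a peak in at least 1 library. Of these, 41 had a peak in all 6 libraries, against 13% of all 149774 regions, and 79 in a single library. None was found in all 3 libraries titled Control and in none titled 6bKO, against 0.288% of all regions. The reverse held for 3, against 1.3% of all regions. One lay at chr15:80289486-80289834, 34302 bases past the Atf4 start, with fold enrichments of 5.37, 3.87 and 7.20. Another lay at chr10:127325859-127326224, 35066 bases past the Ddit3 start, with 5.62, 4.11 and 4.90. The last lay at chr4:132473450-132473736, 36720 bases past the Sesn2 start, with 9.74, 8.14 and 11.9. The libraries titled 6bKO held 53692 to 69729 peaks and those titled Control 44739 to 62125, and the share near the 10 genes was 0.133% to 0.154% in every list. A missing peak is not closed chromatin, since the depth of these libraries is unknown.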

How the data were processed

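For RNA the authors deposited 1 table per library of unnormalized counts, by Ensembl gene ID. The submitters' processing notes name, without roles, mm10 and, for RNA, HTSeq 0.8.0, featureCounts 1.4.5 of Subread, Partek 6.6 and STAR 2.0.4, and, for ATAC, BWA 0.7.16a, cutadapt 1.16 and MACS2. The deposited ATAC peak lists give a score, a fold enrichment ratio and −log10 p and q values per peak. Each library has its own list. Lines for unassigned reads, the rest of each file beside the assigned shares given above, were left out.

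The test across genes was that of edgeR 4.0.16, run in R 4.3.3 (filterByExpr, TMM, robust glmQLFit and glmQLFTest on genotype, two-sided, Benjamini-Hochberg over 15185 genes, threshold 0.05), with limma 3.58.1 and DESeq2 1.42.0 as alternatives. The code was tested on simulated data. No pair of libraries of the same group agreed within sampling noise, since the chi-square per degree of freedom was 14.75 or more. Of 49671 gene IDs 49326 matched a symbol, and positions came by symbol from RefSeq. ATAC peaks overlapping by at least 1 bp were merged in Python 3.11.15. The 10 genes and all lists were chosen with earlier results of these data known. Named genes are the 10, Kdm6b, the 3 closest to Atf4 and, per list, up to 2 called genes per direction or else the 2 of highest mean CPM. Fos, Vars, Eif4ebp1, Nupr1, Batf, Jund, Procr, Hlf, Klrb1c, Car2, Ms4a2, Cpa3 and Prg2 were named beyond this rule, after their values were seen. The 95% intervals come from the edgeR fit and include the spread between libraries, while floors cover counting error only. The planned CPM per kb were not made, because no transcript lengths were used. The 8 other samples of the series were not analysed here.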

Additional observations from a re-analysis of the deposited data

How the results depend on the processing

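The count of 70 genes past the threshold became 467 with DESeq2, 42 with limma-voom, 576 with no filter on low counts and 19 without genes on chromosome 11. It ranged from 20 to 519 when 1 library was left out. The count among the 10 genes, 1, became 2 with library totals, 5 with DESeq2, 5 with no filter on low counts, and 0 with limma-voom, with robust estimation off and without genes on chromosome 11. It ranged from 0 to 4 when 1 library was left out. With library totals the median log2 fold change of all genes moved to 0.147, with 70 genes higher and 30 lower against 37 and 33. The sign of Ddit3 turned to 0.0793 with library totals, 0.129 with Control replicate 1 left out and 0.0400 with Kdm6b-KO replicate 2 left out. With 1 library left out Ddit3 ran from -0.217 to 0.129. Slc7a11 ran from -0.819 to 0.342, turning to 0.342 when Control replicate 3 was left out and to 0.0696 when Kdm6b-KO replicate 3 was, and it was not tested at a mean of at least 5 CPM. Of 149 alternative values of the 10 genes, 125 kept direction and call, 12 newly passed, 7 no longer passed and 5 turned. The cause was not tested. The replicate block gave 88 calls and 1 of the 10. Same-numbered libraries had correlations of 0.0484, 0.169 and -0.110, and Control 1 and Control 3 each correlated best with another number, so the numbers were not taken to pair the libraries. The 162 ATAC regions became 58 within 10 kb and 40 within 1 kb, those in all 6 libraries became 21 and 15, and the 3 in the libraries titled 6bKO alone became 0 and 0. Leaving out 1 ATAC library gave 137 to 159 regions, 41 to 46 in all libraries, 0 to 3 in Control-titled and 3 to 6 in 6bKO-titled libraries alone. Slc7a11 held the fewest counts of the 10 genes, 3 to 38 per library, and had the widest interval.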
